A study of Mus musculus with 12 samples.

Results

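The Obox genes, the oocyte-specific homeobox family of the mouse, were followed in mouse embryonic stem cells made to express the transcription factor mDux. Members were taken by symbol: each gene row whose symbol starts with Obox was included, pseudogenes too. This gave 42 of the 30480 genes listed in the 3 deposited count tables. Of these 42, 7 carry symbols without the suffix -ps (Obox1, Obox2, Obox3, Obox5, Obox6, Obox7 and Obox8) and are annotated as protein coding in GENCODE M21. The other 35 carry -ps: 27 are Obox4-ps members, 7 are Obox3-ps members and the last is Obox6-ps1. All 42 were listed in the tables of the inducible line, and 30 were listed in the table of the transient experiment, which holds no gene with 0 reads in all 4 of its libraries.

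Poly(A) RNA was sequenced from cells grown in 2i medium with serum and leukemia inhibitory factor, in 6 groups of 2 libraries. In the transient experiment a codon-altered mDux transgene without tag, or a control, was expressed for 24 h, and single-end reads of 50 bases were taken. The labels give the control libraries the same transgene entry as the mDux libraries, so the control is known here only by its title and was not described further. The other 4 groups came from drug-selected single-cell clones that carry 2 constructs, a lentiviral, doxycycline-inducible 3xHA-tagged mDux and a MERVL::EGFP reporter, which is driven by an endogenous retrovirus active in early embryos. These cells were left without doxycycline or induced for 24 h and used unsorted, or were induced for 24 h and sorted by flow cytometry into GFP-negative and GFP-positive cells. Paired-end reads of 125 bases were taken from them. The sources used here give neither the number of clones nor whether paired libraries are separate cultures; the p-values below therefore cover library-to-library spread only, possibly technical. Libraries are called A and B by their order in the tables, since the column names could not be tied to the replicate numbers of the titles.

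Homeobox genes encode transcription factors that bind DNA through a homeodomain. The Obox proteins are relatives of the paired-like class of homeodomains and are known from mouse oocytes and early embryos, where Obox1, Obox2, Obox5 and Obox7 are supplied by the oocyte and Obox3 and Obox4 are transcribed in the embryo. Members of the family act redundantly in mouse zygotic genome activation, the onset of transcription in the embryo, and Dux, a double homeodomain factor, acts at the same stage on retroviral MERVL elements and on genes of the 2-cell embryo. Embryonic stem cells in culture carry little of either program, apart from a small fraction of cells that resemble the 2-cell embryo.

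In GENCODE M21 on GRCm38 (mm10), 41 of the 42 members lay in a single block of 1.51 Mb, chr7:14331436-15839678, and Obox6-ps1, a processed pseudogene, lay alone at chr17:61360573-61361614. Of the 35 -ps members, 33 are annotated as unprocessed pseudogenes and Obox4-ps35 as a lincRNA. Within the block, Obox4-ps12 to Obox4-ps23 form an array of 12 annotated genes, 9 of them in the tables, whose starts are 11079 to 11369 bases apart. The spans of 9 members overlapped another member, since Obox1 and Obox3 are annotated over long stretches that hold other copies. GENCODE M21 lists 55 Obox genes, and 13 of them were not analysed here.

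Promoters of 5 members were found in RefSeq (GRCm38.p6, 250 bases before and 50 bases after the annotated start, all on chromosome 7), namely Obox1, Obox2, Obox3, Obox5 and Obox7. The promoters of 3 are shown so that a similar pair, Obox1 and Obox7, can be set beside Obox3, which differs more. Each is given 5′ to 3′, with the longest run common to all 5 promoters in capitals.
Obox1: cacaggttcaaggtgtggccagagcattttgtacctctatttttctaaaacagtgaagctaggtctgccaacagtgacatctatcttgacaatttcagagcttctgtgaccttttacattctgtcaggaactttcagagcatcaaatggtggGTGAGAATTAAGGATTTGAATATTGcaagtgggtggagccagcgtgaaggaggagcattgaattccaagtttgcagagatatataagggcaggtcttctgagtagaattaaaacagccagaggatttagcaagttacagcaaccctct
Obox7: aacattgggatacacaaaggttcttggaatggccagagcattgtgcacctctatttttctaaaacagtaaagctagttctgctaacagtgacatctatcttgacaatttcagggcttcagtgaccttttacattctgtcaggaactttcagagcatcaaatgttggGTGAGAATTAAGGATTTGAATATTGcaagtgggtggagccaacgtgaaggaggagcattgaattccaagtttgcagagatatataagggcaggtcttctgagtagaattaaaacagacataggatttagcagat
Obox3: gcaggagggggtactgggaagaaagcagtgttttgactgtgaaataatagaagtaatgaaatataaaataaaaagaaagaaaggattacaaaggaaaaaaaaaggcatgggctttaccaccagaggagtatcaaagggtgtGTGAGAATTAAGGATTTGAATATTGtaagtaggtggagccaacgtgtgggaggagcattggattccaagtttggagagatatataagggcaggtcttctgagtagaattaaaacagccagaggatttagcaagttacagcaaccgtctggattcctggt
Obox1 lies at chr7:15547007-15547306 on the plus strand, Obox7 at chr7:14659458-14659757 on the plus strand and Obox3 at chr7:15639728-15640027 on the minus strand. A run of 25 bases was identical in all 5 promoters and was found in 0 of the other promoters among 32851. Longer runs, not in capitals, were shared by fewer: 44 bases by Obox1, Obox2, Obox5 and Obox7, 42 by Obox1, Obox3, Obox5 and Obox7, and 74 by Obox1, Obox5 and Obox7. The motif GATTNNATC, a shortened form of sites reported for mouse Dux, was searched on both strands and was in 0 of the 5 promoters, against 1.58% of all promoters. TAATCC, a site of paired-like homeodomains, was in 1 of 5, the Obox3 promoter, against 7.06% of all. TATATAA, searched after the sequences had been seen and also on both strands, was in 4 of 5, against 3.24% of all. The one without it, Obox2, has the common run at -1 from its annotated start, against -84 to -110 in the others. Its window therefore ends before the place of TATATAA and before the end of the 42- and 74-base runs. Where the windows of Obox2 and Obox1 align, their letters are the same. The match positions are descriptions of letters in these windows.

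Because the copies resemble each other, reads of one can be assigned to another. Of the 50-base stretches in a member's annotated transcripts, a median of 28.9% occurred in no other annotated gene, and of the 125-base stretches a median of 62.9%. Obox6, Obox8 and Obox4-ps35 were almost wholly their own, with 100% of their 125-base stretches found nowhere else. Obox1 and Obox2 shared 38.6% and 43.2% of their 125-base stretches with each other. Obox4-ps33 kept 69.4% of 125-base stretches to itself, Obox4-ps16 29.9%, Obox4-ps27 22.2% and Obox4-ps14 8.28%. Of 50-base stretches, the read length of the transient experiment, Obox4-ps33 kept 26.8%, Obox4-ps16 13.8% and Obox4-ps27 9.29%. Obox4-ps17, Obox4-ps18, Obox4-ps21 and Obox4-ps28 had no stretch of 50 or 125 bases of their own. Every 125-base stretch of Obox4-ps18 also occurs in Obox4-ps20, yet Obox4-ps18 was given 431 and 518 reads in the doxycycline libraries. The counts of single Obox4-ps copies are therefore uncertain, and values for near-identical copies are not separate measurements. The sources used here do not give how the deposited counting shared reads among copies.

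**Figure D1:**
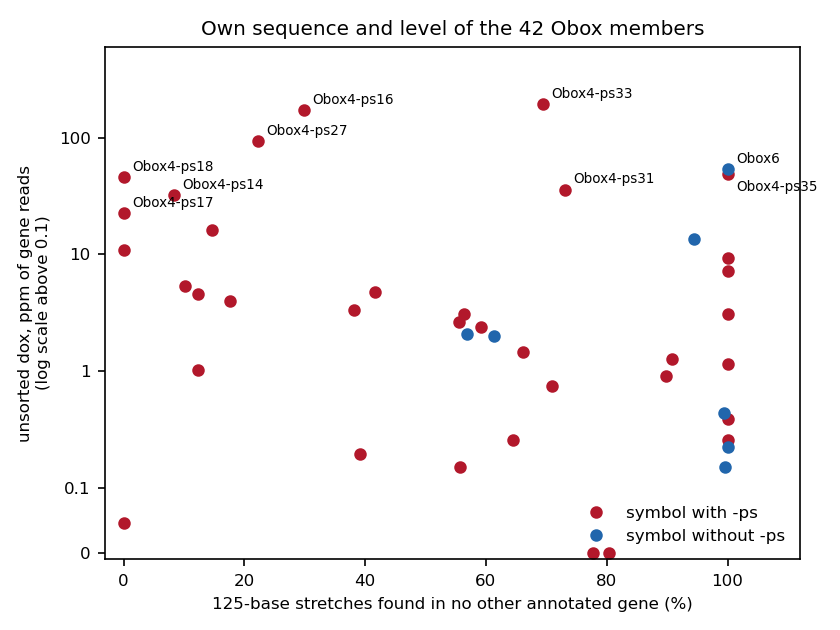
Level of the 42 members in unsorted doxycycline libraries (ppm, that is reads per 1000000 gene reads, mean of 2 libraries, log scale above 0.1) against the percent of 125-base stretches of each member found in no other annotated gene. Highly counted members occur across the range, from Obox4-ps18 with 0% to Obox6 and Obox4-ps35 with 100%.

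The libraries held 17914954 to 21988401 counted reads in the transient experiment, 14365741 to 18388836 in the unsorted cells and 31870748 to 53826590 in the sorted cells. Duxf3, the endogenous Dux gene, which does not have to match the codon-altered transgene, had 37 and 59 reads in the mDux libraries against 7 and 12 in controls, 421 and 603 with doxycycline against 5 and 3 without, and 362 and 327 in GFP-positive against 22 and 13 in GFP-negative cells. All 8 fixed pluripotency markers were detected in every library. With doxycycline 8 of 8 fell, against 31.1% of tested genes, and in GFP-positive cells 8 of 8, against 32.0%. In the transient comparison 0 of 8 passed (edgeR, 0 at an unadjusted p under 0.05 and 0 with DESeq2). There 2.13% of tested genes rose and 0.00668% fell, so 0 of 8 does not set the markers apart. The 12 fixed oocyte markers summed to 3.17 to 7.78 counts per 1000000 (CPM) in each of the 12 libraries. They summed to 4.70 and 3.17 CPM without doxycycline and to 6.90 in both libraries with it, and 1 of 3 tested rose there, Mos, a kinase of oocyte meiosis, from 2 and 1 reads to 8 and 15. After sorting 1 of 3 tested rose, Gdf9, an oocyte growth factor. Of all tested genes 34.0% rose with doxycycline and 34.3% after sorting, so these oocyte counts lie near the share of all genes. H1foo, the oocyte linker histone, had at most 1 read in a library. Fixed fibroblast markers summed to 18.9 to 21.7 CPM in doxycycline and GFP-positive libraries and to 2.33 to 4.61 CPM elsewhere, with 4 to 7 of 8 detected. Thy1 rose from 26 and 26 to 176 and 202 reads with doxycycline, the 1 of 2 tested markers that passed there, against 34.0% of genes. In GFP-positive cells 3 of 4 tested rose, against 34.3% of genes: Thy1, Col1a1 from 124 and 98 to 137 and 164 reads (1.62 ± 0.18 on the log2 scale) and Col1a2 from 7 and 14 to 45 and 43 (3.22 ± 0.38). Dcn, which also marks fibroblasts, had 0 reads in all doxycycline and sorted libraries, and the part of oocyte or fibroblast markers in the Obox values was not tested. Sorted and unsorted libraries stood apart. Of 15268 genes with at least 50 reads over the unsorted libraries, 88 had 0 reads in all sorted libraries, among them Y-linked Ddx3y with 1086 to 2066 reads against 0. Culture, clone and date cannot be told apart from sorting in any value set across those tables. Members' counted lengths also differed between tables: 16 of 30 shared members were shorter in the transient table.

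The summed reads of the family were higher with transient mDux, with doxycycline and in GFP-positive cells than in their comparison groups. Of these comparison groups the GFP-negative cells had been induced too. The gap was widest in the inducible line. Summed over members, Obox reads made up 24.5 and 31.9 ppm of gene reads in the mDux libraries and 4.97 and 3.999 in the controls. The sum was 785 and 822 ppm of gene reads with doxycycline against 3.17 and 3.81 without, and 196 and 197 in GFP-positive against 4.60 and 4.56 in GFP-negative cells. In each comparison the 2 groups did not overlap, and in the control, uninduced and GFP-negative groups the sum stayed under 5 on that scale. A single copy, Obox4-ps33, was assigned 71.7% of the Obox reads of the transient mDux group, so the sum there is mostly reads counted for Obox4-ps33. Only 26.8% of its stretches of 50 bases, the read length there, occur in no other annotated gene. Which copies these reads came from is therefore uncertain. Bulk libraries cannot tell more cells with Obox RNA from more Obox RNA per cell.

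**Figure D2:**
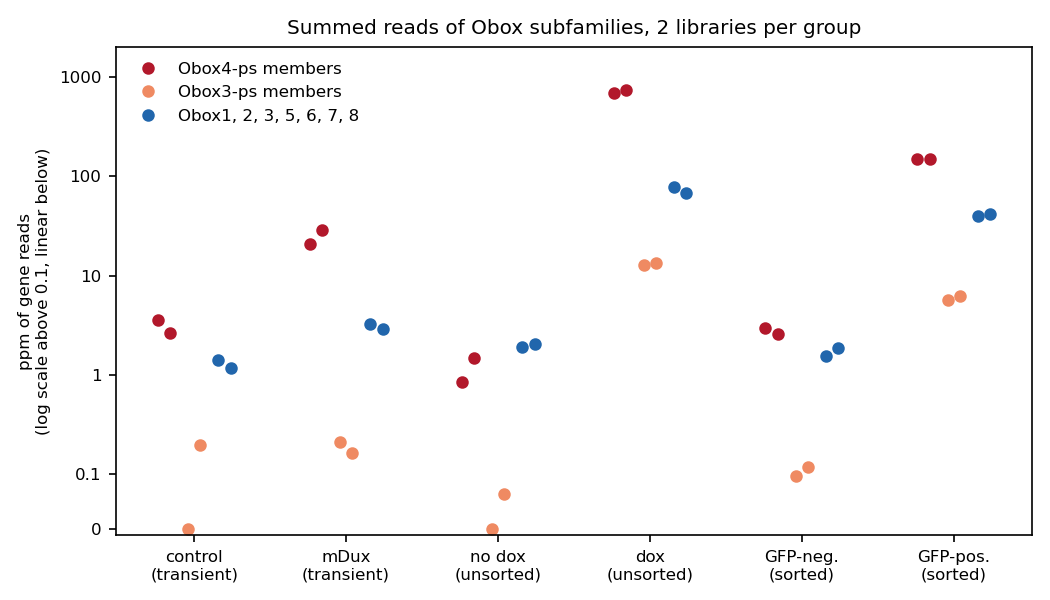
Summed reads of the Obox4-ps members, the Obox3-ps members and the 7 symbols without -ps, in ppm of gene reads, in each of 12 libraries (log scale above 0.1, linear below). The mDux, doxycycline and GFP-positive groups sit above their comparison groups for the Obox4-ps sum and the sum of the 7 symbols; Obox3-ps sums in the transient experiment stay near 0.2 or below.

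Most of the reads came from copies annotated as pseudogenes. Obox4-ps members held 88.4% of Obox reads with doxycycline, 76.3% in GFP-positive cells and 88.1% in the mDux libraries (means of 2 libraries). They already held most Obox reads in 2 of the 3 comparison groups, with 68.5% in the transient controls and 60.2% in GFP-negative cells. Without doxycycline their share was 32.8%, and the 7 symbols without -ps held 57.1%. In the uninduced cells Obox6 was the highest member, with 56.7% of all Obox reads. Per kilobase of counted length, the doxycycline order began with Obox4-ps16 at 203 ± 10.4 CPM per kb (SD, n = 2) and Obox4-ps33 at 183 ± 14.0. Obox4-ps27 followed at 74.0 ± 1.89, Obox4-ps18 at 68.6 ± 1.56, Obox4-ps35 at 61.6 ± 2.35 and Obox6 at 43.8 ± 5.24. In GFP-positive cells Obox4-ps16 had 40.5 ± 2.11 CPM per kb, Obox4-ps33 33.5 ± 0.692, Obox4-ps27 26.0 ± 1.56 and Obox6 21.8 ± 0.547. The gaps between neighbours exceeded their SDs from 2 libraries, but the order rests on the counted lengths, which are 922 bases for Obox4-ps16 and 722 for Obox4-ps18 where the annotated exons of each span 1137. Per kilobase of annotated exons Obox4-ps33 came first with doxycycline, at 183 ± 14.0 CPM per kb, and Obox4-ps16 second at 165 ± 8.46, and in GFP-positive cells they lay at 33.5 ± 0.692 and 32.8 ± 1.71, closer than their SDs. On that scale Obox4-ps18 was at 43.6 ± 0.987 with doxycycline, within the SD of Obox6 at 43.6 ± 5.22, and Obox4-ps35 at 77.8 ± 2.97 lay above Obox4-ps27.

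The transient experiment compared 24 h of mDux expression with a control. Counting every listed member, both mDux libraries lay above both controls, in CPM scaled by the TMM method, for 15 of 30, against 16.4% of all 27776 listed genes. The other 15 overlapped, with at most 5 reads in any library, and 0 members lay below, against 13.2% of genes. The low-count filter left 4 members to test, of which 3 rose and 0 fell, where 2.13% of 14979 tested genes rose and 0.00668% fell (edgeR quasi-likelihood test, Benjamini-Hochberg adjusted p under 0.05). Of these 4, Obox4-ps33 and Obox6 would have passed the filter on the controls alone.

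Obox4-ps33 had 307 and 438 reads in the mDux libraries and 43 and 42 in the controls. Its log2 fold change was 3.08 ± 0.26 (SE; edgeR adjusted p = 0.000481). Obox4-ps16 had 21 and 31 reads against 2 and 1, a ratio of 16.9 with a counting interval of 5.46 to 84.5 (95%, exact; edgeR adjusted p = 0.0122). Obox4-ps27 had 24 and 27 reads against 2 and 1, a ratio of 16.5 with an interval of 5.35 to 82.9 (edgeR adjusted p = 0.00751). Obox4-ps16 and Obox4-ps27 passed the filter only through the mDux libraries. The 3 members did not overlap between groups, though the call of Obox4-ps16 was lost without mDux library B. Without control library A, 5 members passed, and without control library B, 4; both omissions also raised the number of genes called over the genome, from 320 to 614 and to 2589.

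Obox6, a homeobox gene that promotes reprogramming when added to the reprogramming factors in mouse cells, had 35 and 26 reads with mDux and 20 and 21 in controls. Its log2 difference was 0.52 ± 0.31 and did not pass (edgeR adjusted p = 0.907). Obox1 had 10 reads in each mDux library and 0 in both controls, at least 6.49-fold higher against a floor of 3 reads over the control group. Obox2 had 7 and 6 reads against 0 and 0, at least 4.22-fold higher. Both lay under the filter and were not tested, as were the remaining 4 coding members. Obox3 had 5 and 7 reads against 1 and 2, Obox5 2 and 2 against 1 and 1, Obox7 2 and 0 against 0 and 0, and Obox8 0 and 2 against 1 and 0. Obox4-ps35, also untested, had 28 and 9 reads against 4 and 4. Differences of these sizes are at the limit of what this depth can show, since 1 CPM was worth 15.6 to 20.8 reads.

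In the inducible line, most members had more reads with doxycycline. Both doxycycline libraries lay above both libraries without doxycycline for 38 of 42 members, against 33.6% of 26242 genes with reads, and below for 0, against 30.4%. The exceptions were Obox8 with 0 and 5 reads, Obox4-ps21 with 0 and 1, and Obox4-ps8 and Obox4-ps26 with none. Before induction, 24 of the 40 members with reads had 0. All 30 members that passed the filter rose, where 34.0% of 16229 tested genes rose and 31.1% fell. That count is no support by itself, since 29 of the 30 passed the filter through the doxycycline libraries. The one that would have passed without them is Obox6.

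Obox6 went from 27 and 32 reads to 562 and 552, a log2 fold change of 4.98 ± 0.14 (edgeR adjusted p = 1.74e-99). It was the only coding member with over 1 CPM before induction, 1.84 ± 0.107 CPM (SD, n = 2), and reached 58.6 ± 7.02 CPM. Obox3 had 0 reads in both libraries without doxycycline and 128 and 153 with it, at least 157-fold higher. Obox1 went from 0 and 0 to 22 and 19 reads, at least 22.9-fold, and Obox2 from 0 and 0 to 22 and 21, at least 24.0-fold. Obox7 had 4 and 5 reads with doxycycline, Obox5 2 and 1, and Obox8 0 and 5, and these members, all with 0 reads before, were not tested.

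Obox4-ps33 had 3 and 3 reads without doxycycline and 1748 and 2266 with it, a log2 fold change of 10.05 ± 0.15. Obox4-ps16 went from 1 and 8 reads to 1598 and 2000 (9.34 ± 0.15 on the log2 scale). Together these copies gave 24.1% and 21.6% of all Obox reads in the doxycycline libraries. Obox4-ps27 went from 1 and 2 reads to 875 and 1056, and Obox4-ps18 from 2 and 2 to 431 and 518. Obox4-ps35, annotated as a lincRNA and with no 50-base stretch shared, went from 0 and 1 read to 455 and 559, a ratio of 1699 with a counting interval of 304 to 67170. Obox4-ps31 had 338 and 404 reads against 1 and 1, and Obox4-ps14 301 and 370 against 1 and 0. Obox4-ps17 had 194 and 273 against 0 and 0, at least 261-fold higher. No library of one group came near the other for any of these copies. The 13 members with over 90% of 125-base stretches of their own had 2890 reads in all with doxycycline and 75 without. Those without such a stretch drew 1646 reads against 5.

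Members that stood outside the Obox4 copies showed the same direction. The 7 Obox3-ps members summed to 13.0 ± 0.389 ppm of gene reads with doxycycline and 0.0323 ± 0.0457 without (SD, n = 2). Obox6-ps1, the single member on chromosome 17, had 6 and 3 reads without doxycycline and 80 and 66 with it. Its log2 fold change was 4.72 ± 0.34 (edgeR adjusted p = 1.99e-31). It too passed the filter only through the doxycycline libraries, so its call is no support by itself.

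**Figure D3:**
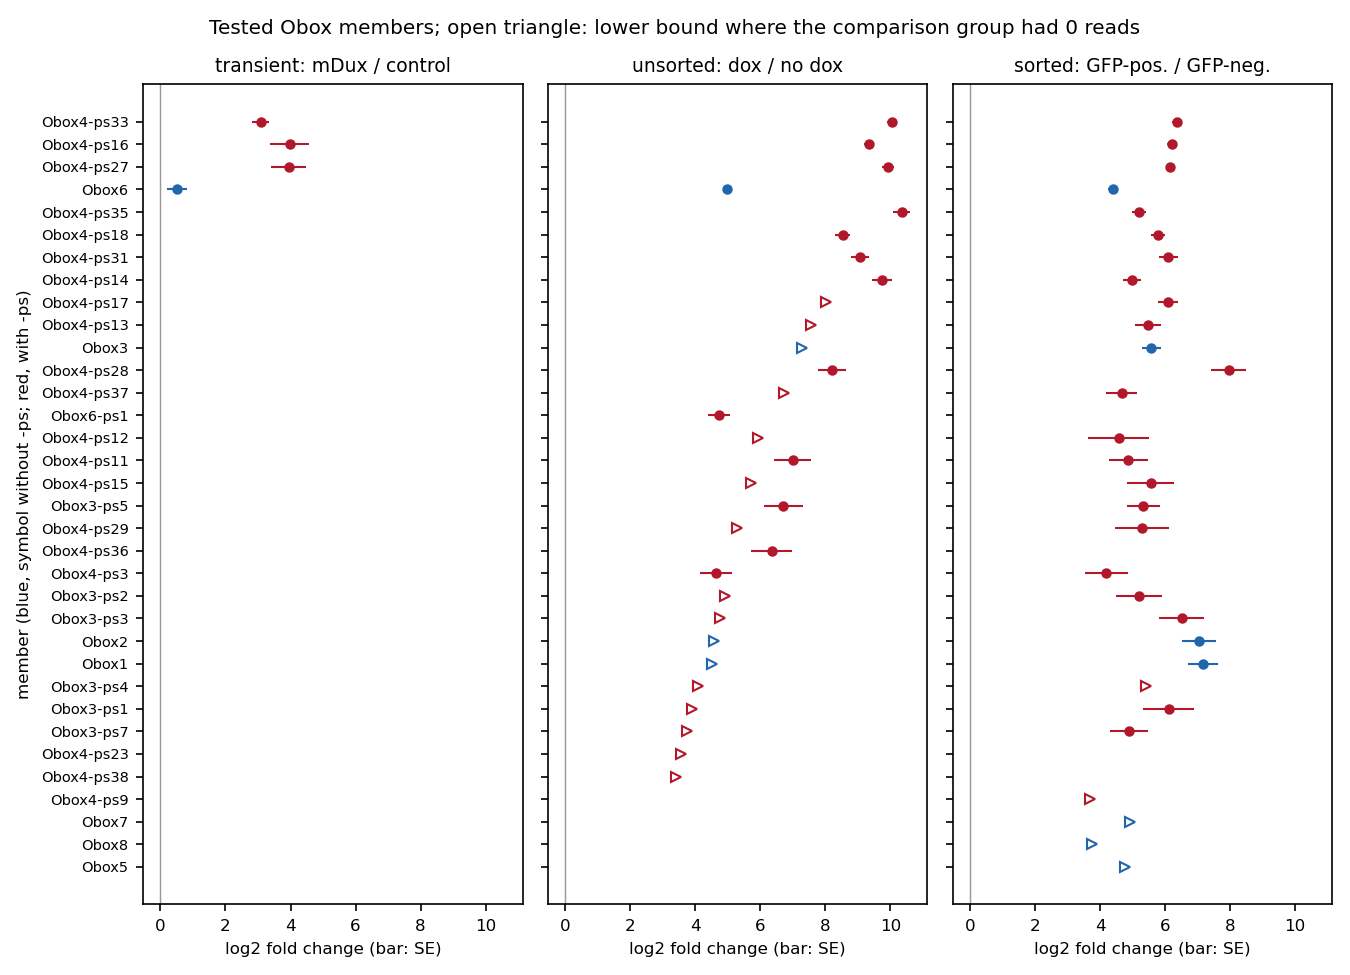
Log2 fold change with SE (bars) of each tested Obox member in 3 comparisons, members ordered by reads in the doxycycline libraries; open triangles are lower bounds where the comparison group had 0 reads, and blue marks the symbols without -ps. Every point lies right of 0, Obox6 in the transient comparison within 2 SE of it; fitted values of members with 1 to 3 reads in the comparison group depend on the small prior count that edgeR adds.

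Sorting on the MERVL reporter also separated most members. Both GFP-positive libraries lay above both GFP-negative ones for 35 of 42 members, against 34.3% of 25020 genes with reads. The 5 that overlapped had at most 2 reads in any library, 2 members had none, and 0 lay below, against 32.1% of genes. All 30 tested members rose, where 34.3% of 16403 tested genes rose and 32.0% fell. Here too the count is no support by itself, since only 5 of the 30 would have passed the filter on GFP-negative libraries alone. The 7 coding members were all among those tested, at the greater depth of these libraries.

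Obox6 had 63 and 91 reads in GFP-negative cells and 716 and 725 in GFP-positive cells, a log2 fold change of 4.40 ± 0.14 (edgeR adjusted p = 1.16e-11). Obox3 went from 13 and 4 reads to 181 and 186 (5.58 ± 0.29, edgeR adjusted p = 2.10e-09), but passed the filter only through the GFP-positive libraries. Obox1 had 1 and 1 reads against 68 and 80, a ratio of 167 with a counting interval of 45.5 to 1395. Obox2 had 2 and 0 against 69 and 66, a ratio of 153 with an interval of 41.5 to 1274. For each of these genes the GFP-positive libraries were close to each other and far above the GFP-negative ones.

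The remaining 3 coding members had few reads in GFP-positive cells and none in GFP-negative cells. Obox7 had 0 and 0 reads against 26 and 14, at least 30.2-fold higher, and Obox5 0 and 0 against 14 and 22, at least 27.1-fold. Obox8 had 0 and 0 against 9 and 9, at least 13.6-fold. The other groups held at most 5 reads of any of the 3 in a library.

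Among the Obox4 copies, Obox4-ps33 went from 33 and 18 reads to 964 and 915 (6.37 ± 0.16 on the log2 scale). Obox4-ps16 went from 28 and 28 to 965 and 876 (6.21 ± 0.14), and Obox4-ps27 from 31 and 24 to 845 and 899 (6.16 ± 0.14). Obox4-ps35 went from 14 and 14 to 220 and 241 (5.20 ± 0.22). Obox4-ps18 had 14 and 11 reads against 298 and 317, Obox4-ps31 4 and 7 against 187 and 157, Obox4-ps14 9 and 15 against 195 and 145, and Obox4-ps17 6 and 3 against 146 and 135. These 4 copies did not overlap between groups either. Obox6-ps1 was at 0 reads in all 4 sorted libraries.

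**Figure D4:**
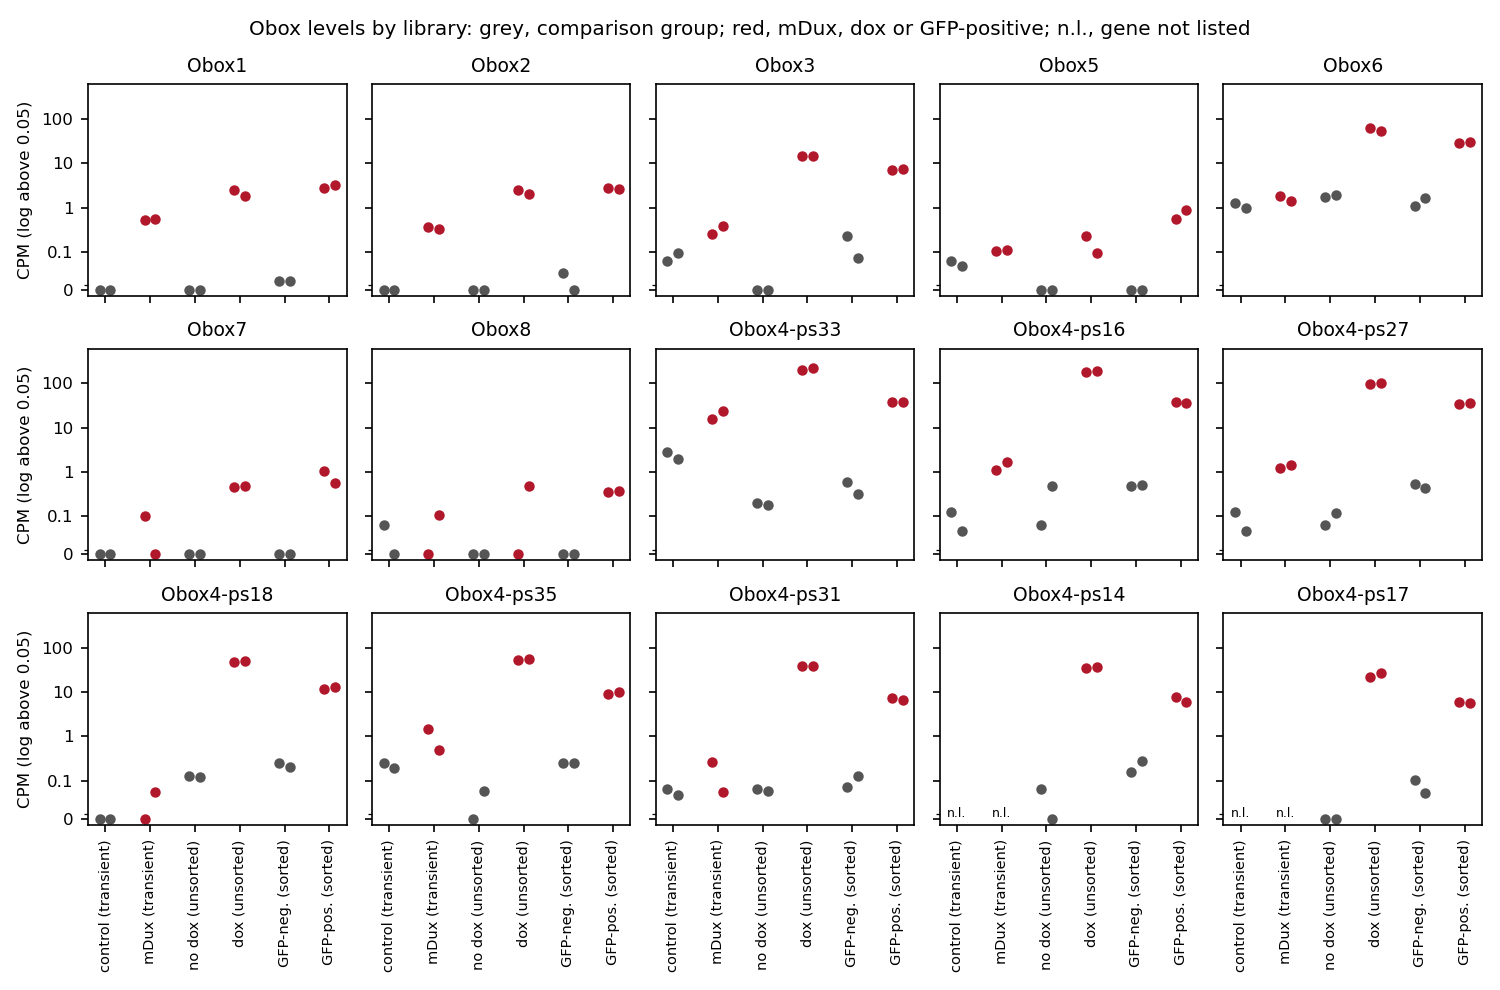
CPM of the 7 coding members and the 8 -ps members with the most reads, in every library (points; log scale above 0.05), by group. In the inducible line the red groups (doxycycline, GFP-positive) lie above their grey comparison groups except for Obox8 with doxycycline, where 0 and 5 reads overlap 0; Obox5 and Obox7 had at most 5 reads in a doxycycline library. In the transient experiment Obox6 lies between 1.01 and 1.83 CPM in all 4 libraries.

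The GFP-negative cells, induced but dim, were also compared with uninduced cells. Their summed Obox share was 4.60 and 4.56 ppm of gene reads, against 3.17 and 3.81 in uninduced cells and 4.97 and 3.999 in transient controls. Small numbers of reads of Obox4 copies and Obox3 were present in GFP-negative libraries, and the source of these reads was not tested. Of 33 tested members 8 rose and 1 fell, while 43.6% of 17820 tested genes rose and 34.2% fell in this contrast across tables. Nothing is read from that count, since 31 of the 33 passed the filter only through the doxycycline or GFP-positive libraries of the joint fit, and 17 had at most 3 reads in all over the 4 libraries compared, 6 of them 0. Obox4-ps33 had 33 and 18 reads in GFP-negative libraries against 3 and 3 in uninduced ones (1.86 ± 0.53 on the log2 scale; edgeR adjusted p = 0.00217), and Obox4-ps27 31 and 24 against 1 and 2 (2.92 ± 0.57; edgeR adjusted p = 3.77e-05). Obox3 had 13 and 4 against 0 and 0, at least 2.48-fold higher under TMM scaling. Values of this contrast depend on the scaling, since gene totals in place of TMM moved the median of all genes by -0.57 on the log2 scale. Obox4-ps16, Obox4-ps35, Obox4-ps18, Obox4-ps14 and Obox4-ps17 also passed. The calls of Obox4-ps16, Obox4-ps18, Obox4-ps14 and Obox4-ps17 were each lost when at least one library was left out, and a fit of the 4 libraries alone called 3 members in all. Obox6 had 63 and 91 reads against 27 and 32, which is a log2 difference of 0.19 ± 0.24 at the greater depth of the sorted libraries (edgeR adjusted p = 0.479). Obox6-ps1 fell, from 6 and 3 reads to 0 and 0, but was at 0 in GFP-positive cells too, like the Y-linked genes.

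Levels in the unsorted doxycycline and the GFP-positive libraries were set side by side as shares of gene reads. Of 18194 genes with at least 10 reads in either kind of library, 59.4% had a larger share in both doxycycline libraries than in both GFP-positive libraries and 29.1% a smaller one. Of the 20 Obox4-ps members with at least 10 reads in either kind of library, 20 had a larger share in both doxycycline libraries. The ratio was 2.34 to 24.9 with a median of 5.65. That count is no support by itself, since these copies share sequence and a member could enter through 1 kind of library alone. The highest ratio is that of Obox4-ps38, with 19 reads with doxycycline and 2 in GFP-positive cells. Of 7 coding members, 2 were higher with doxycycline, Obox6 by 2.02 times and Obox3 by 1.99 times. Another 4, Obox1, Obox2, Obox5 and Obox7, were higher in both GFP-positive libraries, and Obox8 overlapped. Obox1 had 2.30 and 1.71 ppm of gene reads with doxycycline and 2.49 and 3.03 in GFP-positive cells. Obox5 had 0.209 and 0.0900 against 0.513 and 0.832, from 3 reads and 36 reads in all. Among the 7 Obox3-ps members 5 were higher with doxycycline and 2 overlapped, with ratios from 0.952 to 3.71 and a median of 1.66. For comparison, Zscan4d, a marker of the 2-cell embryo, was at 4106 ± 56.6 CPM with doxycycline and 5871 ± 180 CPM in GFP-positive cells, and Duxf3 at 53.1 ± 7.76 and 14.0 ± 0.778 CPM (SD, n = 2). These values were set side by side across 2 tables and not tested.

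**Figure D5:**
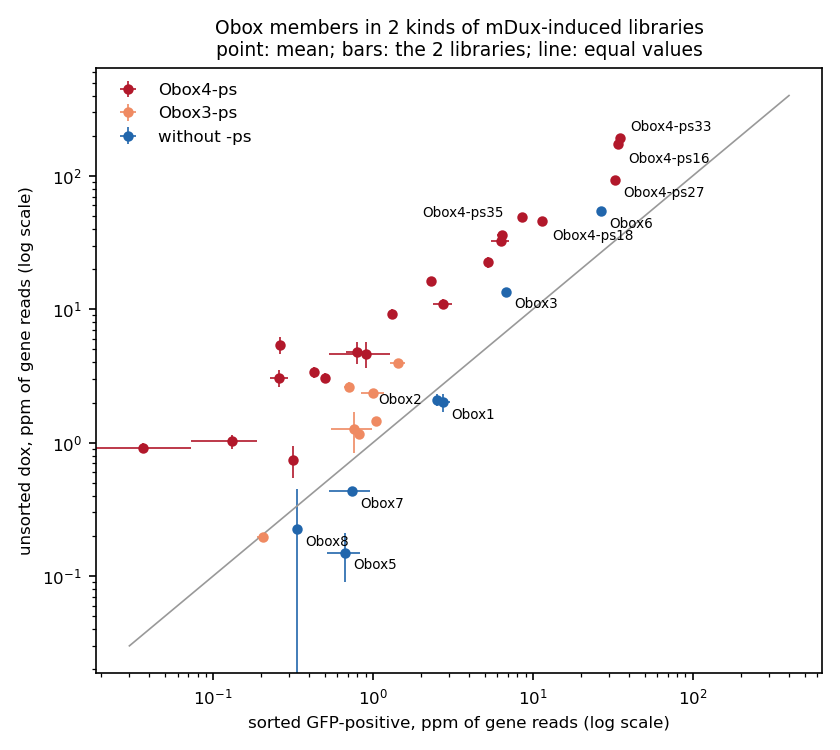
Level in ppm of gene reads of each member in unsorted doxycycline libraries against GFP-positive libraries (log scales; points are means, bars span the 2 libraries, the line marks equal values), for members with at least 10 reads in either kind and reads in both. Obox4-ps members lie above the line. Obox1, Obox2, Obox5 and Obox7 lie below it, as do the means of Obox8 and Obox3-ps6, whose libraries overlap.

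The effects themselves were also compared. In a joint fit of transient and unsorted libraries, the signed difference was the transient effect minus the doxycycline effect. It was called below 0 for 12 of 22 tested members and above 0 for 0, against 14.1% and 22.9% of 17152 genes. A difference above 0 can come from a fall with doxycycline, as for the 8 fixed pluripotency markers, all called above 0. The count of members is no support by itself, since 18 of the 22 passed the filter only through the doxycycline libraries. For Obox6 the difference of effects was -4.27 ± 0.37 on the log2 scale (edgeR adjusted p = 1.24e-06), and for Obox4-ps33 -6.80 ± 0.51 (edgeR adjusted p = 1.89e-06). In a joint fit of sorted and unsorted libraries, the signed difference was the effect of reporter sorting minus that of doxycycline. It was called below 0 for 11 of 33 members and above 0 for 0, against 20.6% and 9.87% of 17820 genes. Here too nothing is read from the count, since 31 of the 33 passed only through the doxycycline or GFP-positive libraries. Obox4-ps33 differed by -3.80 ± 0.48 (edgeR adjusted p = 5.05e-07). For Obox6 the difference was -0.67 ± 0.26 and did not pass (edgeR adjusted p = 0.0502). The experiments also differ in read length, counted gene length, tag, vector and cell line, which cannot be told apart from these differences.

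Other homeobox genes and the neighbours of the block served as a frame. In the transient comparison 2.13% of all tested genes rose and 0.00668% fell. Of 31 paired-class and oocyte homeobox genes outside the family, 15 were tested there and 0 passed, a count that does not set them apart. At an unadjusted p under 0.05, 1 was higher and 1 lower, and DESeq2 called 0. Of 19 tested with doxycycline 11 rose and 3 fell, where 34.0% of all tested genes rose and 31.1% fell, and of 23 tested after sorting 14 rose and 1 fell, where 34.3% rose and 32.0% fell. Otx1, a paired-like gene of the embryonic brain, rose with doxycycline from 3 and 5 reads to 27 and 48, and Otx2, a factor of the epiblast, fell from 407 and 419 to 147 and 198. Of 37 other genes within 500 kb of the chromosome 7 block, 15 were tested in the transient comparison and 0 passed. At an unadjusted p under 0.05 edgeR had 0 of these neighbours, and DESeq2 called 0. With doxycycline 9 of 18 neighbours rose and 1 fell, and after sorting 9 of 19 rose and 3 fell. Each count is to be read against the share of all genes in the same comparison, given above. Crxos, a homeobox gene beside the block, went from 450 and 479 reads to 414 and 441 with doxycycline, a rise of 0.63 ± 0.09 on the log2 scale after scaling. Gtpbp4-ps3, a pseudogene, went from 0 and 0 reads to 164 and 188. Of 23 zygotic genome activation factors, 9 of 18 tested rose and 0 fell in the transient comparison, where 2.13% of genes rose. With doxycycline 13 of 19 rose and 3 fell, and after sorting 13 of 19 rose and 5 fell, beside the shares of all genes just given. Tfap2c, Tead4 and Gabpa fell in both, Tfap2c by 1.46 ± 0.10 on the log2 scale with doxycycline, and Rarg and Nr5a2 fell after sorting. The Zscan4 members of that list rose in the transient comparison, Zscan4d by 3.60 ± 0.10 on the log2 scale.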

How the data were processed

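RNA was sequenced from 12 libraries of mouse embryonic stem cells in 6 groups of 2. Raw read counts per gene and per repeat were deposited by the authors in 3 tables, with a length per feature as another column. Per the submitters' processing notes, Novoalign 2.8, DESeq2 and mm10 were used, while the sources used here do not give how multiply mapped reads or strand were handled. The library kit was a stranded one, per the labels.

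The whole of each table, genes and repeats, was fitted with edgeR 4.0.16 (R 4.3.3): quasi-likelihood test, robust, with TMM factors from gene counts alone. Features with few counts were removed (filterByExpr, minimum count 10, total 15), and p-values were adjusted over genes (Benjamini-Hochberg, 0.05). CPM values are scaled within a table. SE is the log2 fold change divided by the root of F. Where a group had 0 reads, a bound was computed against 3 reads over the group, and where it had 1 to 3, an exact binomial interval (95%). Bounds and intervals cover counting error only. Differences between effects were interaction contrasts in joint fits of 8 libraries, as was GFP-negative against no doxycycline. Scripts were tested on simulated data. Replicate libraries of a group differed by more than sampling noise, so none was counted as 1 sample. Chi-square per degree of freedom was 1.81 to 30.6, highest in the transient controls.

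Members, gene lists and tests were chosen with earlier results of these data known. Text names all coding Obox symbols, the 8 -ps members with most reads, any member that fell, and members at or near 0 reads. Gene models were from GENCODE M21 and promoters from RefSeq GRCm38.p6, which gave 5 of 7 coding members. Alternatives were DESeq2 1.42.0, RLE factors, gene totals, other filters, leaving out each library and, added after seeing the data, a block on the column index. All columns of per-sample counts were used.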

Additional observations from a re-analysis of the deposited data

Results flagged for a closer look

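Differences between effects passed the test for 7 named members between the transient experiment and doxycycline, all with the smaller effect in the transient experiment (edgeR quasi-likelihood test, Benjamini-Hochberg adjusted p). Nothing is read from the common direction, since 18 of the 22 members tested passed the filter only through the doxycycline libraries. The adjusted p was 1.89e-06 for Obox4-ps33, 1.24e-06 for Obox6, 0.000318 for Obox4-ps35, 0.00129 for Obox3, 0.00167 for Obox4-ps27, 0.00447 for Obox4-ps31 and 0.0134 for Obox4-ps16. The size was -4.27 ± 0.37 on the log2 scale for Obox6 and -6.80 ± 0.51 for Obox4-ps33. The calls of Obox4-ps16 and Obox4-ps27 were both lost without control library A. Obox3, Obox4-ps35, Obox4-ps31 and Obox4-ps27 had at most 2 reads in an uninduced library. The sizes of their doxycycline effects therefore depend on the small prior count that edgeR adds.

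Between reporter sorting and doxycycline, 9 named members differed, all with the smaller effect of sorting. The common direction is no support, since 31 of the 33 members tested passed the filter only through the doxycycline or GFP-positive libraries. The adjusted p was 5.05e-07 for Obox4-ps33, 1.81e-06 for Obox4-ps16, 1.95e-06 for Obox4-ps27, 3.41e-06 for Obox4-ps35, 7.09e-05 for Obox4-ps14 and 0.000482 for Obox4-ps18. It was 0.00424 for Obox4-ps17, 0.00464 for Obox3 and 0.00652 for Obox4-ps31. Obox3 and Obox4-ps17 had 0 reads in both uninduced libraries, and Obox4-ps35, Obox4-ps14, Obox4-ps31 and Obox4-ps27 at most 2 in either. The sizes of their doxycycline effects therefore depend on the small prior count that edgeR adds. The 2 comparison groups differ in kind, since GFP-negative cells had been induced and held 236 and 232 Obox reads. The call of Obox3 was lost without GFP-negative library A and that of Obox4-ps31 without GFP-negative library B, while Obox6 passed without doxycycline library B or without GFP-negative library A. Read length, counted length and cell line differ between the transient experiment and the inducible line, and sorted and unsorted libraries differ in Y-linked reads, so these cannot be told apart from the differences.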

How the results depend on the processing

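A replicate block on the index in the column names, within each table, was added after seeing the data; this index could not be tied to the numbers of the titles, and nothing says that it pairs cultures. Differences between libraries of the same index correlated at -0.28 across genes in the transient table and at -0.05 in both others. With the replicate block 3 Obox members passed in the transient comparison, 30 with doxycycline, 30 after sorting and 8 between GFP-negative and uninduced cells. The call of Obox4-ps18 in that last comparison was lost (edgeR adjusted p = 0.0511), and Obox6 passed between the effects of sorting and doxycycline (edgeR adjusted p = 0.0403). With no low-count filter, 6 Obox members instead of 3 and 533 genes instead of 320 passed in the transient comparison. Leaving out each library there gave 2 to 5 members and 247 to 2589 genes, and 614 genes without control A. With at least 1 CPM in 2 libraries, 17 members instead of 30 were tested and called in the sorted cells, since fewer members passed that filter. With the 4 libraries alone, 3 members instead of 9 passed between GFP-negative and uninduced cells. The summed Obox share, in ppm of all counted reads, was 2.95 without doxycycline, 531 with it, 4.37 among the GFP-negative and 163 among the GFP-positive. Over symbols without -ps alone, in ppm of gene reads, it was 3.08 for mDux, 1.30 for its control, 1.98 without doxycycline, 72.8 with it, 1.71 for GFP-negative and 40.7 for GFP-positive cells. The remaining counts of members and genes stayed within 1.5 times of their values. Of 829 values of named members under alternatives, 801 kept their call and direction, 24 lost the call, 19 of these between GFP-negative and uninduced cells, 4 gained it and 0 reversed. Gene totals in place of TMM moved the median of all genes by -0.22 with doxycycline, -0.25 after sorting and -0.57 between GFP-negative and uninduced cells. In the transient comparison 26 of 30 members were too low to test.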
